A study of Mus musculus with 7 samples.

Results

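The genes described here are 31 genes of the T cell antigen receptor and of T cell identity. They were chosen by name from a given list, and all 31 were found among the 32544 genes of the deposited table. Whole abdominal aortas were taken from male Apoe-/- mice after a high-fat diet of 12 weeks, and their RNA was measured by 3′ mRNA sequencing. Mice of this genotype have no apolipoprotein E and form arterial plaques. In 3 libraries the mice had received ITA-LNP and in 4 a control LNP, each at 50 mg/kg into the vein 1 time a week, so that the missing Apoe gene, the diet and the injections were shared by both groups. LNP usually abbreviates lipid nanoparticle, ITA is read from the series title as itaconate, a metabolite of activated macrophages, and the sample titles write NP in place of LNP. The ages of the mice, the contents of the control particles and any flushing of the vessels are not given in the sources read here. Nor do the labels say whether each library is from a mouse of its own, so the p-values rest on the spread among 7 libraries, some of which may be technical. A whole aorta can hold T cells of the plaque, of the adventitia and of blood left in the vessel, as well as neighbouring lymph node tissue.

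Most T cells recognise antigen with a receptor made of an alpha and a beta chain, whose constant parts are encoded by Trac and by Trbc1 or Trbc2, and a smaller lineage uses gamma and delta chains. These chains cannot signal alone and sit in the membrane with the CD3 chains, encoded by Cd3e, Cd3d, Cd3g and Cd247. When the receptor binds a peptide on an MHC molecule, the coreceptors CD4 or CD8 bring in the kinase LCK, which phosphorylates the CD3 chains. The kinase ZAP-70 then docks there and phosphorylates the adaptor LAT. Costimulatory proteins such as CD28 and ICOS strengthen the signal and CTLA-4 restrains it, while transcription factors such as TCF-1, BCL11B and GATA3 set up and maintain the T cell programme. In atherosclerosis, T cells are known to gather in the plaque and the adventitia, where effector cells promote and regulatory cells restrain inflammation.

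The libraries held 5077073 to 7281721 reads. Levels are in CPM, reads per 1000000 reads. The limit that a count of 0 allows, 3 reads, was 0.412 to 0.591 CPM depending on the library, and covers counting error only. The labelled tissue was checked against markers of its smooth muscle. The 9 smooth muscle genes summed to 17365 to 21560 CPM in the ITA-LNP libraries, but to 451 to 753 CPM in the libraries labelled control-LNP, which were rich in blood cell transcripts: their 14 platelet genes summed to 11232 to 15504 CPM, against 196 to 298 CPM with ITA-LNP. Control-LNP 2 stood apart from the other 3 control-LNP libraries, with 10846 genes detected against 14232 to 15333. Tests whose call changes without it are therefore given both ways. The low smooth muscle level of the libraries labelled control-LNP goes against their label of abdominal aorta. Whether they hold another tissue, or carry the wrong label, cannot be settled from these files, and every ratio below compares the libraries as labelled. The amounts of aortic wall and of blood cell RNA moved with the groups in every library, so the treatment and the makeup of the samples cannot be told apart in what follows. Nor can fewer T cells and less RNA per T cell be told apart in bulk tissue.

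The T cell genes were low in the ITA-LNP aortas. Their summed level was 250, 444 and 257 CPM in ITA-LNP 1 to 3 and 3419, 1612, 2973 and 3857 CPM in control-LNP 1 to 4. The groups did not overlap, and the mean was 317 ± 110 CPM against 2965 ± 972 CPM (SD, n = 3 and 4), a ratio of 9.35, or 10.8 without control-LNP 2. Of the 31 genes, 15 fell and 0 rose (limma, Benjamini-Hochberg adjusted p under 0.05), and 0 rose at an unadjusted p under 0.05. Limma-voom on the reads recovered from the values called 13 lower and 0 higher. Among all 12636 genes tested, 5.15% were called lower and 10.3% higher. That split depended on the scaling: 651 genes were called lower and 1306 higher, against 1309 and 959 with median centring and 1401 and 1614 with quantile normalization, under which 23 and 24 of the T cell genes fell and 0 rose. The median log2 fold change of the 31 genes was -3.61, against 0.15 over all genes tested. Without control-LNP 2, 27 of the 31 genes fell, where 15.7% of all genes were called lower and 15.7% higher. The 4 genes then not called were Cd4, Tcf7, Lef1 and Themis, and the median was -4.12 for the T cell genes and -0.31 for all genes.

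**Figure D1:**
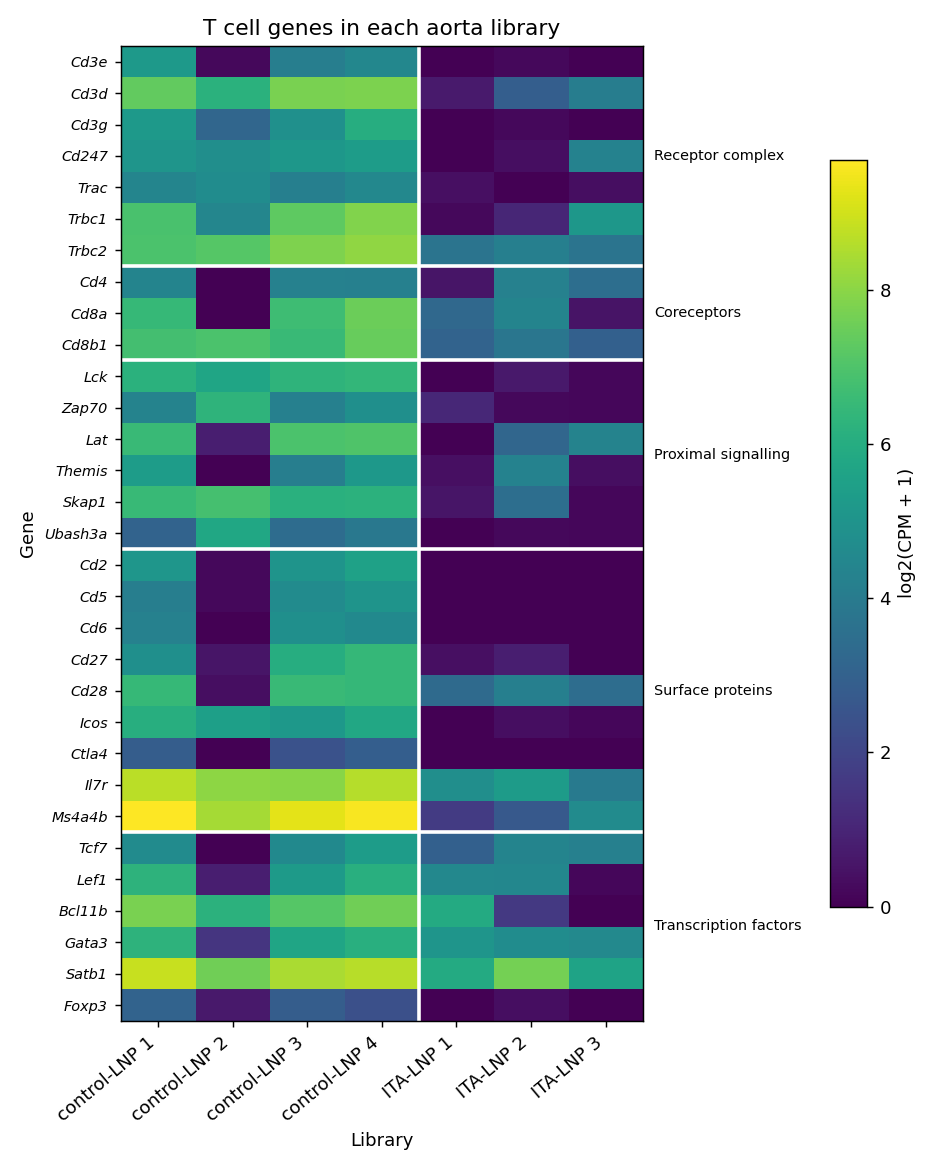
Level of each of the 31 T cell genes (rows, grouped by role) in each library (columns), as colour on the log2(CPM + 1) scale. The 3 ITA-LNP columns are dark for most genes, and control-LNP 2 is dark for some genes and bright for others, where the other 3 controls resemble each other.

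All 31 genes passed the filter on low values, which asked for an average log2(CPM + 1) of 1 or more in the 7 libraries. For 13 of them the ITA-LNP mean was under 1, so these passed through the control-LNP libraries and the counts above lean toward lower calls. In the ITA-LNP libraries 4 genes had 0 reads, 5 genes had 1 to 3 reads over all 3 libraries, and 22 had more. The mean with ITA-LNP was 0 to 69.0% of the control-LNP mean, with a median of 4.66%, and was under 5% for 16 genes. The share of all genes under 5% is not given here, and the filter leans this count toward low values too. For the 22 genes with more than 3 reads with ITA-LNP, the median coefficient of variation was 101% over ITA-LNP 1 to 3, 53.4% over all 4 controls and 20.1% over control-LNP 1, 3 and 4. Within the T cell genes the most abundant in control-LNP 1, 3 and 4 were Ms4a4b (738 ± 103 CPM), Satb1 (407 ± 61.2) and Il7r (347 ± 87.5; SD, n = 3). The least abundant were Foxp3 (5.91 ± 1.71) and Ctla4 (5.71 ± 1.11). Satb1 and Il7r, next to each other in that order, lay within their spread, as did Foxp3 and Ctla4.

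The genes lie on 15 chromosomes of mm10 (GENCODE M21), and all 31 were matched there by symbol. Of the receptor genes, Cd3g (chromosome 9, 44969572 to 44980431, minus strand), Cd3d (44981786 to 44987339, plus strand) and Cd3e (44998740 to 45009627, minus strand) are neighbours. The transcription starts of Cd3g and Cd3d lie 1355 bases apart and point away from each other. Because these 3 neighbours encode partners of 1 complex and were all lower with ITA-LNP without control-LNP 2, the 250 bases before their starts are shown, with those of Lck, the kinase that acts on their products. The sequences are RefSeq's on GRCm38.p6, 5′ to 3′ on each gene's own strand: Cd3g at chr9:44980432-44980681, Cd3d at chr9:44981536-44981785, Cd3e at chr9:45009612-45009861 and Lck at chr4:129573642-129573891. Capitals mark matches, on either strand, to short motifs of factor families known to act in T cells, chosen as follows. The motif TGTGGT was used for RUNX factors, the motif CTTTGA for the TCF and LEF factors, and the motif GGAAG for ETS factors. For E proteins the motif was CAGNTG, with N any base, and AGATAA stood for the family of GATA3. Overlapping matches are merged in the capitals.
Cd3g: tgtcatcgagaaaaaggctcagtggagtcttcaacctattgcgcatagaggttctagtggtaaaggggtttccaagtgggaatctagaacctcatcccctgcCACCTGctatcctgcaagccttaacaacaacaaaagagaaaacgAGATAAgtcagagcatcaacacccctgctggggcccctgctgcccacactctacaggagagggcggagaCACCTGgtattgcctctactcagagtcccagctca
Cd3d: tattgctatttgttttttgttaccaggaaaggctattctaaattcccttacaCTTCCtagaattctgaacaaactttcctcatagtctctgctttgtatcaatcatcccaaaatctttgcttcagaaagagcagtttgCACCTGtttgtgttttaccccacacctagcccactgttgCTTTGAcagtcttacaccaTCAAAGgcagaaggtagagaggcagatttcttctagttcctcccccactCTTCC
Cd3e: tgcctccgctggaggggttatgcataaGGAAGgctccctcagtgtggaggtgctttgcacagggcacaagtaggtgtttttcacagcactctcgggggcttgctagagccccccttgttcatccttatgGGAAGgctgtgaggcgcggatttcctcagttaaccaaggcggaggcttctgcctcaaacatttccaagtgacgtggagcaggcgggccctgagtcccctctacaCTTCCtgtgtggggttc
Lck: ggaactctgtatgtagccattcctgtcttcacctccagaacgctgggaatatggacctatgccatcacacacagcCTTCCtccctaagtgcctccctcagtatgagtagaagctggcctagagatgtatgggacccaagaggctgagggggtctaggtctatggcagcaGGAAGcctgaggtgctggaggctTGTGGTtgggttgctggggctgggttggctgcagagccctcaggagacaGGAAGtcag
The Cd3e window held 3 ETS matches and no other. The Cd3g window held 1 GATA and 2 E protein matches, and the Cd3d window 2 TCF and LEF, 2 ETS and 1 E protein matches. The Lck window held 3 ETS matches and 1 RUNX match. RefSeq windows were found for 21 of the 31 genes. Among these, 17 (81.0%) held the ETS motif, against 63.6% of 27025 promoters of the same length, and 12 (57.1%) the E protein motif, against 44.5%. The TCF and LEF motif was in 3 (14.3%, against 14.05%), the GATA motif in 1 (4.76%, against 10.3%) and the RUNX motif in 1 (4.76%, against 14.2%). Windows were not chosen by cell type and a match to such short motifs is a description of letters, not of binding.

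All 7 genes of the receptor complex had lower means with ITA-LNP, and 5 of them fell. Without control-LNP 2 all 7 fell, with a median log2 fold change of -4.56, against -4.21 with it. Values below are in CPM and in the order of the replicate numbers, control-LNP 1 to 4 first and then ITA-LNP 1 to 3. Log2 fold changes are ITA-LNP minus control-LNP on the log2(CPM + 1) scale, which understates the change of low genes, with their standard errors (SE) and limma's adjusted p.

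Cd3e encodes CD3 epsilon, the chain most used to mark T cells. It was at 37.0, 0.150, 16.7 and 21.5 CPM in the controls and at 0, 0.147 and 0 CPM with ITA-LNP, where a single read was counted over all 3 libraries. Control-LNP 2 also held 1 read, so it lay with the ITA-LNP libraries and not with the other controls. The log2 fold change was -3.46 ± 1.22 (adjusted p = 0.0932, limma) and did not pass the test, but was -4.56 ± 0.64 without control-LNP 2 (adjusted p = 0.00149). A ratio from the reads pooled within groups was 361, with a counting interval of 64.4 to 14284. A predicted gene, Gm48719, overlaps Cd3e exons on the other strand, and whether the counting used strand is not stated in the labels.

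Cd3d and Cd3g encode the delta and gamma chains that pair with CD3 epsilon. Cd3d was at 164, 71.5, 211 and 215 CPM in the controls and at 0.627, 6.48 and 16.1 CPM with ITA-LNP. The groups did not overlap, although the ITA-LNP libraries differed among themselves, and Cd3d fell by 4.69 on the log2 scale (SE 0.87, adjusted p = 0.00511). Cd3g was at 36.4, 8.07, 28.1 and 64.6 CPM against 0, 0.147 and 0 CPM, again a single read over the ITA-LNP libraries. Its log2 fold change was -4.76 ± 0.94 (adjusted p = 0.00722), and the pooled ratio was 691 with a counting interval of 124 to 27308. Cd247 encodes the zeta chain, which carries most of the complex's signalling motifs. Its levels were even in the controls, at 32.3, 26.9, 33.9 and 39.9 CPM, and uneven with ITA-LNP, at 0, 0.295 and 18.8 CPM. Cd247 did not pass the test with all libraries (-3.52 ± 1.13, adjusted p = 0.0668) and passed narrowly without control-LNP 2 (-3.62 ± 1.14, adjusted p = 0.0450). Its exons overlap those of Pou2f1 on the other strand.

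Trac (chromosome 14, 54220521 to 54224206) encodes the constant region of the alpha chain and marks alpha beta T cells. It was even across the controls, control-LNP 2 included, at 20.1, 25.3, 17.3 and 21.8 CPM. With ITA-LNP it was at 0.314, 0 and 0.275 CPM, under the limit that 0 reads allow in each library. The mean was 108 times lower (0.196 ± 0.171 against 21.1 ± 3.33 CPM; SD, n = 3 and 4), with a log2 fold change of -4.21 ± 0.80 (adjusted p = 0.00568).

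The beta chain has a pair of constant genes, Trbc1 (chromosome 6, 41538218 to 41539881) and Trbc2 (41546730 to 41548352), of which each T cell uses 1. Their annotated transcripts shared 588 of 676 aligned bases (87.0%) over the whole length. The likeness of their 3′ ends, which these libraries read, was not measured. Whether the authors' counting split reads between them is thus not known, and each level is uncertain. Trbc2 was at 121, 138, 225 and 271 CPM in the controls and at 12.1, 17.2 and 12.4 CPM with ITA-LNP. It stayed detectable at a similar level in all 3 ITA-LNP libraries, and fell by 3.61 on the log2 scale (SE 0.53, adjusted p = 0.00169). Trbc1 was at 120, 20.9, 157 and 232 CPM against 0.157, 1.03 and 33.5 CPM. Here ITA-LNP 3 was above control-LNP 2, so the groups overlapped. The log2 fold change of -4.52 ± 1.28 passed the test (adjusted p = 0.0401), but the call was lost when ITA-LNP 1 or 2 or control-LNP 1, 3 or 4 was left out (adjusted p up to 0.155).

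**Figure D2:**
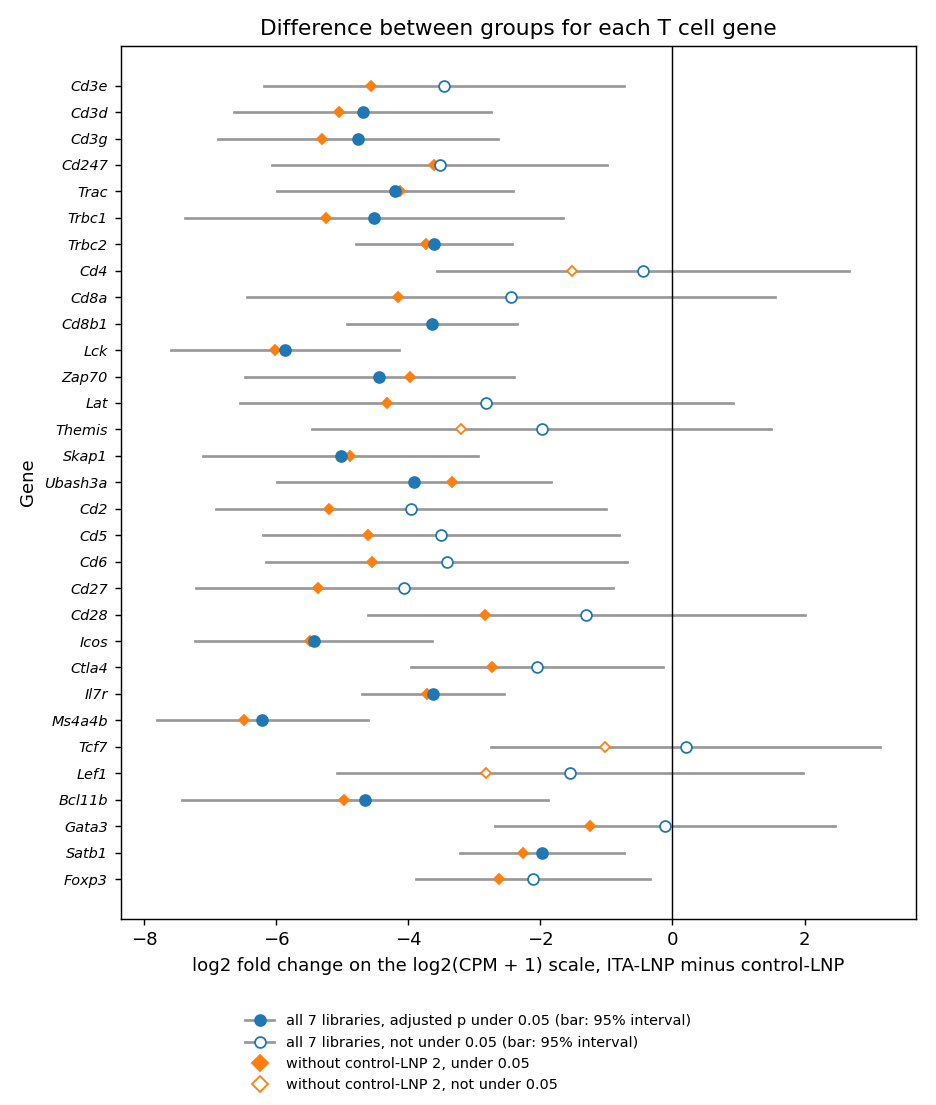
Log2 fold change of each T cell gene on the log2(CPM + 1) scale, ITA-LNP minus control-LNP: circles for all 7 libraries with 95% intervals as bars, diamonds without control-LNP 2, filled where the adjusted p was under 0.05. Of the circles, 15 are filled and 30 lie below 0, and 27 diamonds are filled.

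Of the 3 coreceptor genes, Cd8b1 fell, and Cd8a also did without control-LNP 2. Cd8b1, the beta chain of CD8, was at 108, 123, 93.1 and 174 CPM in the controls and at 7.53, 13.1 and 6.73 CPM with ITA-LNP. These groups were well separated and the libraries within each were close, with a log2 fold change of -3.65 ± 0.57 (adjusted p = 0.00237, limma). Cd8a, the alpha chain that every CD8 molecule contains, was at 87.8, 0, 101 and 179 CPM against 8.78, 19.6 and 0.412 CPM. Control-LNP 2 thus held 0 reads of Cd8a beside 823 reads of Cd8b1, whose gene ends 35933 bases before Cd8a starts on chromosome 6. With that library the log2 fold change of Cd8a was -2.44 ± 1.78 (adjusted p = 0.418), and without it -4.16 ± 0.93 (adjusted p = 0.0109). Cd4, the coreceptor of helper and regulatory T cells, is also transcribed in some macrophages and dendritic cells. It was at 19.7, 0, 18.3 and 17.5 CPM in the controls and at 0.471, 18.0 and 10.3 CPM with ITA-LNP. ITA-LNP 2 thus reached the level of the controls. For Cd4 the log2 fold change was -0.45 ± 1.39 with all libraries (adjusted p = 0.879) and -1.52 ± 0.98 without control-LNP 2 (adjusted p = 0.279), and it turned to 0.66 without ITA-LNP 1.

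The 6 genes of proximal signalling included 4 that fell, Lck, Zap70, Skap1 and Ubash3a, and Lat joined them without control-LNP 2. Lck (chromosome 4, 129548344 to 129573641) encodes the kinase bound to the coreceptors. It was at 72.3, 50.7, 76.9 and 84.1 CPM in the controls and at 0, 0.589 and 0.137 CPM with ITA-LNP. The controls were alike and the ITA-LNP libraries close to 0, and the log2 fold change was -5.86 ± 0.77 (adjusted p = 0.000992, limma), with means of 71.0 ± 14.4 and 0.242 ± 0.308 CPM (SD). Zap70, the kinase that docks on phosphorylated CD3 chains, was at 19.3, 78.0, 17.5 and 27.6 CPM against 1.10, 0.147 and 0.137 CPM. Control-LNP 2 was the highest library for Zap70, and the ratio of the means was 77.2 with it and 46.5 without it. Zap70 fell by 4.44 on the log2 scale (SE 0.91, adjusted p = 0.00853).

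Skap1 encodes an adaptor that links the receptor to integrins. It was at 90.2, 113, 69.8 and 74.5 CPM in the controls and at 0.471, 10.2 and 0.137 CPM with ITA-LNP, and its log2 fold change was -5.02 ± 0.93 (adjusted p = 0.00505). Ubash3a encodes a protein that dampens receptor signalling. It was at 7.48, 53.7, 9.81 and 13.6 CPM against 0, 0.147 and 0.137 CPM. As for Zap70, control-LNP 2 was the highest library. Ubash3a changed by -3.91 ± 0.92 on the log2 scale (adjusted p = 0.0175), and its call was lost without any 1 of the ITA-LNP libraries or without control-LNP 4 (adjusted p up to 0.0701). The pooled ratio was 235, with a counting interval of 64.8 to 1948. Its control mean was 21.1 CPM with control-LNP 2 and 10.3 CPM without it.

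Lat, the adaptor on which the downstream signalling complex assembles, was at 92.6, 0.748, 121 and 130 CPM in the controls and at 0, 8.25 and 19.1 CPM with ITA-LNP. Only control-LNP 2 among the controls lay within the range of the ITA-LNP libraries. For Lat the log2 fold change was -2.82 ± 1.66 (adjusted p = 0.304), and without that library -4.33 ± 1.01 (adjusted p = 0.0132). Themis, which tunes receptor signalling in developing T cells, was at 39.8, 0, 16.5 and 34.9 CPM against 0.314, 18.7 and 0.275 CPM. ITA-LNP 2 was within the range of control-LNP 1, 3 and 4. Themis was not called with control-LNP 2 (-1.98 ± 1.55, adjusted p = 0.457) or without it (-3.20 ± 1.14, adjusted p = 0.0675).

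Among the 9 genes of adhesion, costimulation and other surface proteins, Icos, Il7r and Ms4a4b fell, and all 9 fell without control-LNP 2. Ms4a4b encodes a membrane protein of mouse T cells that modulates their activation, and was the most abundant of the T cell genes in the controls. It was at 821, 332, 623 and 769 CPM against 2.20, 5.60 and 24.6 CPM. The log2 fold change of -6.21 ± 0.71 (adjusted p = 0.000512, limma) was the lowest of the 31 genes. Il7r encodes the receptor for interleukin-7, on which naive and memory T cells depend, and is also used by innate lymphoid cells. It was at 407, 260, 247 and 388 CPM against 26.7, 38.6 and 14.7 CPM, groups that lay far apart in every library (-3.62 ± 0.48, adjusted p = 0.00101). Icos, a costimulatory receptor that appears on activated and helper T cells, was at 65.6, 43.2, 35 and 54.4 CPM against 0, 0.295 and 0.137 CPM. Its pooled ratio was 336, with a counting interval of 115 to 1630, and the log2 fold change was -5.44 ± 0.80 (adjusted p = 0.00172).

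Cd2, Cd5, Cd6 and Ctla4 had 0 reads in every ITA-LNP library. Cd2, an adhesion receptor for CD48 in mice, was at 32.7, 0.150, 31.4 and 45.1 CPM in the controls. Cd5, a receptor that restrains antigen receptor signalling, was at 16.5, 0.150, 24.8 and 31.2 CPM. Cd6, its paralog on the same chromosome 19, was at 18.1, 0, 27.1 and 23.1 CPM. Ctla4, the inhibitory counterpart of CD28, was at 6.30, 0, 4.42 and 6.40 CPM. In each of the 4 genes control-LNP 2 held 1 read or none, like the ITA-LNP libraries. Against the limit of 3 reads per library, the ITA-LNP means were at least 61.9-fold lower for Cd2, 41.1-fold for Cd5, 38.7-fold for Cd6 and 9.69-fold for Ctla4. With all libraries these genes missed the threshold, at adjusted p = 0.0768 for Cd2, 0.0855 for Cd5, 0.0975 for Cd6 and 0.144 for Ctla4. Without control-LNP 2 their log2 fold changes were -5.21 ± 0.62 for Cd2, -4.61 ± 0.62 for Cd5, -4.55 ± 0.61 for Cd6 and -2.73 ± 0.51 for Ctla4. The highest adjusted p among them was then 0.00494, for Ctla4.

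Cd27 and Cd28 are costimulatory receptors of naive and memory T cells. Cd27 was at 27.4, 0.449, 64.0 and 86.3 CPM in the controls and at 0.314, 0.737 and 0 CPM with ITA-LNP. Its log2 fold change was -4.06 ± 1.41 (adjusted p = 0.0891), or -5.37 ± 0.71 without control-LNP 2 (adjusted p = 0.00113). Cd28 was at 89.4, 0.299, 93.5 and 87.1 CPM against 9.25, 17.2 and 10.03 CPM. Control-LNP 1, 3 and 4 were nearly equal for Cd28 (89.99 ± 3.23 CPM, SD), while control-LNP 2 lay below every ITA-LNP library. The log2 fold change was -1.30 ± 1.47 with that library (adjusted p = 0.625) and -2.84 ± 0.38 without it (adjusted p = 0.00125). The ITA-LNP mean of Cd28, 12.2 ± 4.41 CPM, was 7.39 times below the mean of control-LNP 1, 3 and 4.

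Of the 6 transcription factors, Bcl11b and Satb1 fell, and Gata3 and Foxp3 joined them without control-LNP 2. Their median log2 fold change was -1.77, or -2.45 without that library. Bcl11b, a factor needed to commit cells to the T lineage, was at 211, 73.3, 140 and 189 CPM in the controls and at 59.3, 2.06 and 0 CPM with ITA-LNP. ITA-LNP 1 held nearly all of the ITA-LNP signal and lay just below control-LNP 2. For Bcl11b the log2 fold change was -4.65 ± 1.24 (adjusted p = 0.0306, limma), and the call was lost without ITA-LNP 2 or 3 or control-LNP 1, 3 or 4 (adjusted p up to 0.118). Satb1, a chromatin organiser of T cells that other tissues also express, was at 473, 188, 352 and 396 CPM against 60.2, 199 and 48.6 CPM. ITA-LNP 2 was above control-LNP 2, so these groups overlapped. Satb1 changed by -1.98 ± 0.55 on the log2 scale (adjusted p = 0.0380), a call that did not hold without ITA-LNP 1 or 3 or control-LNP 1, 3 or 4 (adjusted p up to 0.150).

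Tcf7 and Lef1 encode TCF-1 and LEF1, partner factors of naive and memory-like T cells. Tcf7 was at 24.2, 0, 23.1 and 40.3 CPM in the controls and at 6.74, 19.7 and 17.7 CPM with ITA-LNP. It was the only 1 of the 31 genes with a positive log2 fold change, 0.20 ± 1.32 (adjusted p = 0.949), and this was -1.02 ± 0.57 without control-LNP 2 (adjusted p = 0.212). Other settings turned it too: it was -0.12 with a pseudocount of 4 CPM, -0.75 with median centring, -0.39 with quantile normalization and -1.31 with library weights. Lef1 was at 75.2, 0.748, 37.5 and 67.9 CPM against 21.6, 21.4 and 0.137 CPM, so control-LNP 2 and ITA-LNP 3 lay together far below the rest. Lef1 was called neither with control-LNP 2 (-1.55 ± 1.57, adjusted p = 0.583) nor without it (-2.82 ± 1.13, adjusted p = 0.0982).

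Gata3 directs T cell development and type 2 helper cells, and is also a factor of innate lymphoid cells and of sympathetic neurons. It was at 76.4, 1.79, 50.8 and 67.7 CPM in the controls and at 32.3, 25.1 and 22.4 CPM with ITA-LNP. The ITA-LNP libraries were close to each other and lay between control-LNP 2 and the other controls. The log2 fold change was -0.12 ± 1.15 (adjusted p = 0.966), and without control-LNP 2 it was -1.25 ± 0.35 (adjusted p = 0.0269). In the ITA-LNP libraries 8 listed genes of sympathetic neurons summed to 122 to 229 CPM, against 1.20 to 4.53 CPM in the controls. The defining genes Dbh and Slc6a2 were at 19.6 to 27.4 and at 23.6 to 41.9 CPM with ITA-LNP. Their part in the Gata3 level was not tested. Foxp3, which defines regulatory T cells, was low throughout, at 7.48, 0.598, 6.15 and 4.10 CPM against 0, 0.295 and 0 CPM. Its pooled ratio was 43.9 with a counting interval of 11.8 to 367, and its log2 fold change was -2.11 ± 0.79 (adjusted p = 0.112), or -2.63 ± 0.54 without control-LNP 2 (adjusted p = 0.00741). Exons of Ccdc22 and Ppp1r3f overlap those of Foxp3 on the other strand.

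The firmness of these calls differed between genes. Of the 15 genes called lower, 11 stayed called when any 1 library was left out: Cd3d, Cd3g, Trac, Trbc2, Cd8b1, Lck, Zap70, Skap1, Icos, Il7r and Ms4a4b. The ITA-LNP and control-LNP levels did not overlap, with ITA-LNP lower, for 18 of the 31 genes, against 10.7% of all genes tested. For Cd2 and Cd5 that separation rested on 1 read in control-LNP 2, and for Foxp3 on 4 reads there against 2 in ITA-LNP 2. For Cd3e, control-LNP 2 and ITA-LNP 2 both held 1 read, so their CPM differed only through library depth. Without control-LNP 2 the separation held for 29 genes, all except Cd4 and Themis, against 24.2% of all genes tested. The filter leans both counts toward lower levels with ITA-LNP, since 13 of the 31 genes passed it through the control-LNP libraries.

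Control-LNP 2 divided the T cell genes. It held 5 reads or fewer of 14 genes, 6 of them at 0 reads, and 50 reads or more of 16 genes, with Gata3 alone in between at 12 reads. In control-LNP 1, 3 and 4 the fewest reads of any of the 31 genes were 23. The genes nearly missing from control-LNP 2 came from all roles: Cd3e of the receptor complex, Cd4 and Cd8a of the coreceptors, Lat and Themis of the signalling genes, Cd2, Cd5, Cd6, Cd27, Cd28 and Ctla4 at the surface, and Tcf7, Lef1 and Foxp3 among the factors. In the same library Trac, Zap70, Skap1 and Ubash3a were above every other control. The 14 genes are 45.2% of the 31. Of all 10294 genes with a mean of at least 4 CPM in control-LNP 1, 3 and 4, 4881 (47.4%) likewise had 5 reads or fewer in control-LNP 2, so the share among the T cell genes was near that of the table. None of the 15 genes called lower with all libraries was among the 14, and the 16 not called were those 14 with Cd247 and Gata3.

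**Figure D3:**
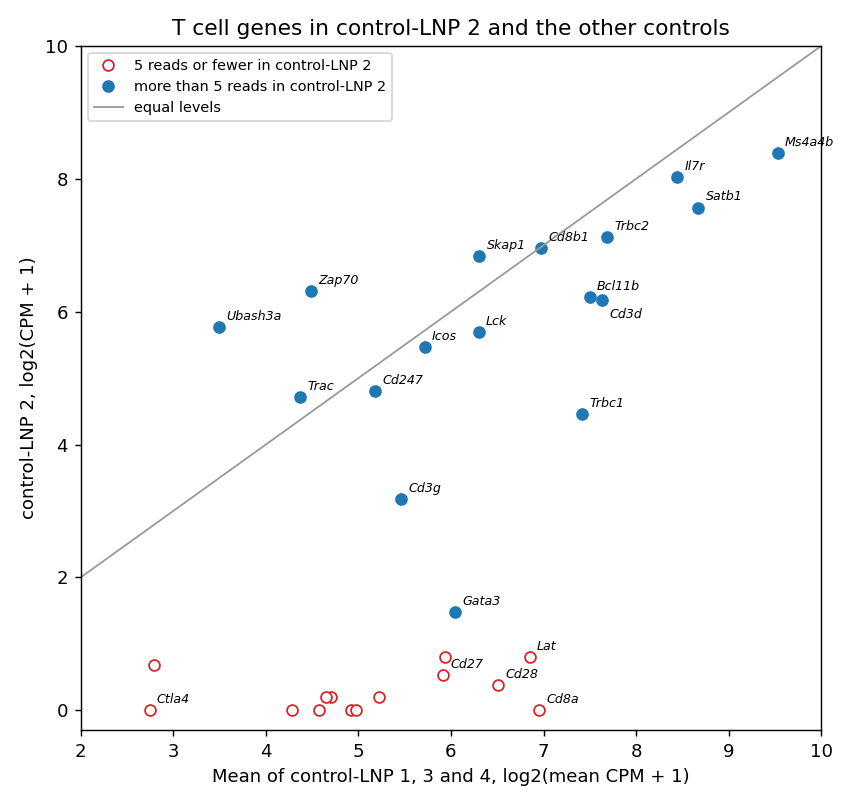
Level of each T cell gene in control-LNP 2 (vertical axis, log2(CPM + 1)) against its mean in control-LNP 1, 3 and 4 (horizontal axis, log2 of the mean CPM + 1), with a line of equal levels. The 14 open circles at the bottom are genes with 5 reads or fewer in control-LNP 2, and Trac, Zap70, Skap1 and Ubash3a lie above the line beside genes near it.

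Missing genes were also frequent with ITA-LNP, but they were not the same from library to library. ITA-LNP 1, 2 and 3 held 5 reads or fewer of 19, 14 and 18 of the 31 genes, and 0 reads of 12, 5 and 9. Over the whole table these libraries detected 12226 to 12856 genes, against 14232 to 15333 in control-LNP 1, 3 and 4. The share of all genes with so few reads is not given here, so these counts are not read as particular to T cell genes. Cd247, Trbc1 and Lat were highest in ITA-LNP 3, Bcl11b in ITA-LNP 1, and Cd4, Themis and Skap1 in ITA-LNP 2. ITA-LNP 1 thus held Bcl11b at 59.3 CPM without Cd247, Lat or Lck, and ITA-LNP 3 held Cd247 at 18.8 CPM without Bcl11b.

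Shares of reads were compared between paired genes. They rest on few reads with ITA-LNP, and Cd4 reads there, 3, 122 and 75 beside 0, 1 and 0 of Cd3e, need not come from T cells. The read share of Cd4 in Cd4 plus Cd8a was 18.3%, 15.3% and 8.92% in control-LNP 1, 3 and 4, while control-LNP 2 had no read of either gene. With ITA-LNP it was 5.08%, 47.8% and 96.2%, a wide spread on both sides of the controls. The difference of the means was 35.5 percentage points (exact two-sided permutation test over 20 splits, p = 0.4, with 0.1 the smallest p possible). Leaving out 1 library moved it between 12.3 (without ITA-LNP 3) and 57.8 points (without ITA-LNP 1). The read share of Trbc1 in Trbc1 plus Trbc2 was 49.7%, 13.1%, 41.1% and 46.2% in the controls and 1.28%, 5.65% and 73.1% with ITA-LNP. The means were 37.5 ± 16.6% and 26.7 ± 40.2% (SD, n = 4 and 3; exact two-sided permutation test over 35 splits, p = 0.657, with 0.0286 the smallest possible). The ITA-LNP libraries lay outside the range of control-LNP 1, 3 and 4 on both sides.

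**Figure D4:**
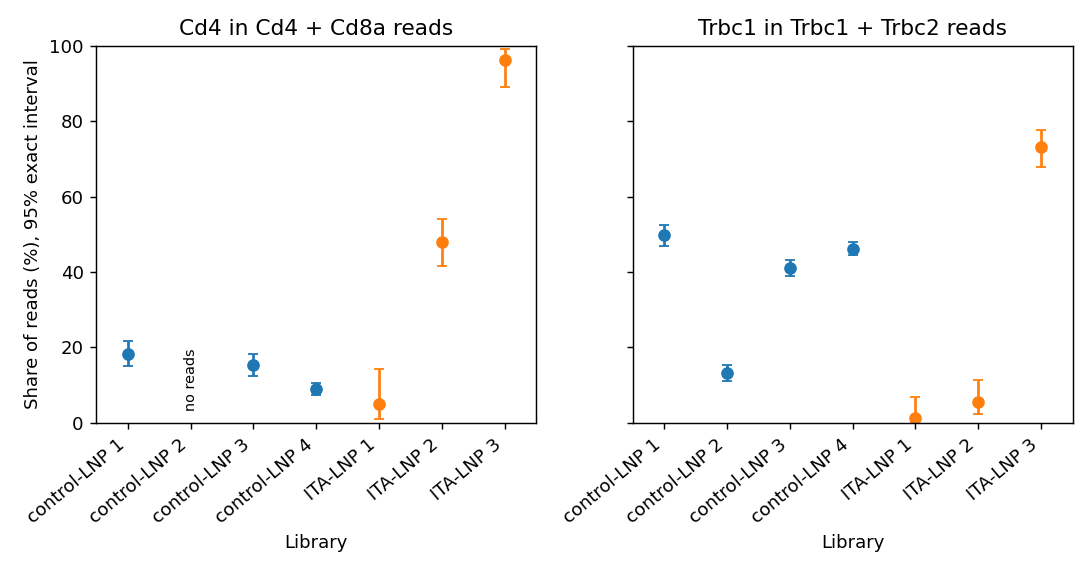
Read share (%) of Cd4 in Cd4 plus Cd8a (left) and of Trbc1 in Trbc1 plus Trbc2 (right) in each library, with exact (Clopper-Pearson) 95% binomial intervals as bars, which cover counting error only. The shares of ITA-LNP 1 to 3 run from 5.08% to 96.2% and from 1.28% to 73.1%, wider than those of the controls.

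Cd3e was also set against genes of all leukocytes and of B cells. Ptprc encodes CD45, carried by all leukocytes, and the read share of Cd3e in Cd3e plus Ptprc was 1.80%, 0.0300%, 1.67% and 1.46% in the controls. With ITA-LNP it was 0%, 0.0798% and 0%, where the exact 95% intervals of the libraries at 0 reach up to 0.592% and 0.762%. The difference was -1.21 percentage points (exact two-sided permutation test, p = 0.0857). The read share of Cd3e in Cd3e plus Cd79a, a B cell receptor gene, was 6.99%, 0.0819%, 4.64% and 6.07% in the controls. In the ITA-LNP libraries it rested on 0 of 37, 1 of 10 and 0 of 14 reads. The means were 4.45% and 3.33% (exact two-sided permutation test, p = 0.686). Adjusted over the 4 shares tested, p was 0.343 for the share with Ptprc and 0.686 for each of the other three.

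Other genes of T cell receptor signalling were lower as well, with a smaller difference in their sum. Of 38 listed genes, 36 were tested, 14 fell and 0 rose (limma; 0 rose at an unadjusted p under 0.05 and 0 in voom), and without control-LNP 2, 26 fell and 0 rose. Their median log2 fold change was -2.49, and they summed to 1071 to 1123 CPM with ITA-LNP and 3760 to 6169 CPM in the controls, a ratio of 4.42. Btla, an inhibitory receptor of T and B cells, was at 0.314, 1.18 and 0.412 CPM with ITA-LNP against 350, 79.4, 300 and 309 CPM (-7.15 ± 0.75, adjusted p = 0.000324). Ptpn22, a phosphatase that dampens the receptor signal, had means of 8.42 and 176 CPM (-4.20 ± 0.52, adjusted p = 0.000740). Ptprc had means of 116 and 1237 CPM (-3.36 ± 0.51, adjusted p = 0.00208). Many genes of this list are used by other leukocytes too.

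Lists of T cell states held few calls with all libraries, and more without control-LNP 2: the naive list then had 6 lower and 2 higher, the regulatory list 5 lower and 1 higher, and the gamma delta list 2 lower. Of 10 genes of naive and recirculating T cells, 2 fell and 2 rose. Klf2, a factor that endothelium also expresses, was among those that fell (354 against 871 CPM, -1.31 ± 0.29, adjusted p = 0.0123). Actn1, an actin crosslinker that many wall cells express, rose (2370 against 334 CPM, 2.85 ± 0.24, adjusted p = 0.000103). Igfbp4, named after its values were seen, also rose (2.81 ± 0.73, adjusted p = 0.0282). Of 10 other regulatory T cell genes, Il2rb, a chain of the interleukin-2 receptor that natural killer cells share, fell (0.343 against 128 CPM, -6.55 ± 0.71, adjusted p = 0.000352). Lrrc32, which presents latent TGF-beta and which endothelium also expresses, rose (136 against 6.74 CPM, 4.29 ± 0.79, adjusted p = 0.00510). Tnfrsf18, which encodes GITR, had 0 reads with ITA-LNP and missed the threshold with all libraries (adjusted p = 0.0838) but not without control-LNP 2 (adjusted p = 0.00110).

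Among 16 genes of helper and effector T cells, 12 were tested and 2 fell, or 10 without control-LNP 2. Cxcr6, a homing receptor of effector T cells, was at 0.494 against 117 CPM (-6.23 ± 0.74, adjusted p = 0.000599), and Cd44, an adhesion receptor of memory T cells and many other cells, at 165 against 654 CPM (-1.96 ± 0.49, adjusted p = 0.0224). Il17a, the cytokine of type 17 cells and named after its values were seen, had 0 reads in all 7 libraries. Of 7 genes of gamma delta T cells 3 were tested, and Tcrg-C1, a constant gene of the gamma chain, fell (0.141 against 25.2 CPM, -4.24 ± 0.89, adjusted p = 0.00981). Trdc, the delta constant gene, was at 48.5, 130, 21.9 and 31.7 CPM in the controls and at 0.157, 11.6 and 12.4 CPM with ITA-LNP (-3.01 ± 1.08, adjusted p = 0.0985). Control-LNP 2 was the highest library for both. Of 7 thymocyte genes 4 were tested and 0 were called in either direction (limma; at an unadjusted p under 0.05, 0 were lower and 2 higher, and voom called 0). Of these, Rag1, the recombinase gene of developing lymphocytes, was at 32.0, 79.9 and 0 CPM in ITA-LNP 1 to 3, and the controls lay at 0 to 0.192 CPM (3.73 ± 1.36, adjusted p = 0.103). Arpp21 was at 10.3 to 17.6 CPM against 0.150 to 5.12 CPM (2.72, adjusted p = 0.0722). Without control-LNP 2, Arpp21 rose (2.40, adjusted p = 0.0426) and Cd1d1, an antigen-presenting molecule, fell (-3.25, adjusted p = 0.0359).

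Transcripts of several other blood cells were lower with ITA-LNP too. The 14 natural killer cell genes, of which 5 fell and 12 fell without control-LNP 2, summed to 22.9 to 31.4 CPM with ITA-LNP and 909 to 1157 CPM in the controls, a ratio of 38.2. Their leading genes Gzma, Klrk1 and Klrd1 can also be transcribed by cytotoxic T cells, and were at 0.730, 0.448 and 0.203 CPM against 288, 152 and 145 CPM. Of the 12 B cell genes 9 fell, or 11 without control-LNP 2. The B cell list summed to 379 to 536 CPM against 2363 to 4907 CPM, a ratio of 9.05, against 9.35 for the T cell genes. The genes within these lists were less alike than the sums. The median log2 fold change was -5.26 for the B cell list and -3.61 for the T cell genes, or -6.25 and -4.12 without control-LNP 2. Of the 14 platelet genes 13 fell, or 14 without control-LNP 2, and the ratio of the list's sums was 55.7. Of the 12 monocyte and dendritic cell genes 4 fell, or 6 without control-LNP 2. The sums of this list overlapped between the groups, at 1149, 1596 and 2085 CPM with ITA-LNP and 1695 to 2177 CPM in the controls, a ratio of 1.24. The median log2 fold change of its genes was nonetheless -1.96, or -2.30 without control-LNP 2. The 8 neutrophil genes, of which 6 fell with limma and 1 with voom, summed to 46.0 to 87.1 CPM with ITA-LNP and to 955, 27132, 10371 and 1107 CPM in the controls. Control-LNP 2 was highest there, while it was lowest for the T cell genes. The 8 erythroid genes, of which 4 fell, or 5 without control-LNP 2, had a ratio of 6.21. Of 7 genes of type 2 innate lymphoid cells 3 were tested and 0 were called in either direction (limma; at an unadjusted p under 0.05, 1 was lower and 1 higher, and voom called 1 lower and 0 higher). Without control-LNP 2, Klrg1, also on the natural killer list, fell (-4.01, adjusted p = 0.00196) and Rora rose (1.76, adjusted p = 0.00444). Il13, named after its values were seen, had 0 reads in all 7 libraries. The part of these cells, and of blood in the vessels, in the difference of the T cell genes was not tested.

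**Figure D5:**
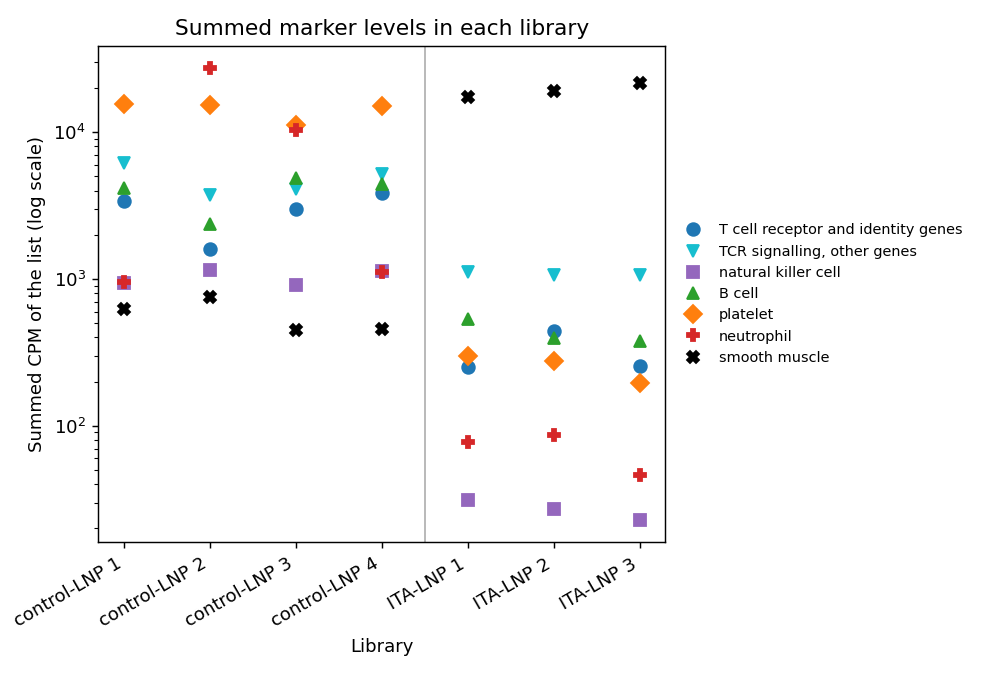
Summed CPM (log axis) of the T cell genes and of 6 other lists in each library. The T cell genes lie at 250 to 444 CPM with ITA-LNP and at 1612 to 3857 CPM in the controls. The B cell genes lie at 379 to 536 CPM and at 2363 to 4907 CPM. The smooth muscle genes are high where the other lists plotted are low. Monocyte and dendritic cell genes are not plotted.

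Lymph node tissue beside the aorta was looked for with 10 genes, 9 of them in the table and 4 tested. Lyve1, a lymphatic endothelial and macrophage gene, rose (83.4 against 3.35 CPM, 4.38 ± 0.79, adjusted p = 0.00449), as did Cxcl13, a chemokine that attracts B cells (11.1 against 0.134 CPM, 3.43 ± 0.69, adjusted p = 0.00765). Cr2, a gene of follicular dendritic and B cells, was at 174, 0.449, 139 and 185 CPM in the controls and at 0, 1.03 and 0.412 CPM with ITA-LNP (-5.16, adjusted p = 0.0686). Without control-LNP 2, Cr2 fell (-6.87, adjusted p = 0.000105). Madcam1, which marks lymph node vessels and was named after its values were seen, had 0 reads in all 7 libraries. Whether lymph node RNA contributed to the T cell genes was not tested beyond these levels.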

How the data were processed

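Gene levels were analysed in 7 libraries, 3 of ITA-LNP and 4 of control-LNP, grouped by their titles. Per the labels' protocols, 500 ng of RNA went into QuantSeq 3′ libraries, whose levels do not grow with gene length. Per the submitters' processing notes, the reads were placed on mm10. For the aligner, the counter and the annotation nothing is given in the sources used here. What the authors deposited are log10 values. Each column of 10 to the power of the value, minus 1, summed to 1000000, so they were read as log10 of CPM + 1, and whole reads were recovered within a tolerance of 0.01.

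Levels were tested as log2(CPM + 1) with limma-trend (limma 3.58.1, R 4.3.3) in all 7 libraries without covariates, over 12636 genes with a mean of at least 1, with Benjamini-Hochberg adjustment and a threshold of 0.05. A design that assumed deposited log2 values was kept in its groups and tests. The procedure was tested on simulated data with equally many rises and falls and no library that stood apart. That test therefore does not cover a deviant control or the shift in makeup seen here. Intervals are 95%, and pooled ratios carry exact counting intervals. Shares were taken in libraries with at least 5 reads of both genes together, and compared by exact permutation. Promoter windows used the 250 bases before the first RefSeq start listed. The 31 genes and the lists were chosen with earlier results of these data known. The 31 genes may all be named, and of each other list the first 3 tested genes by p, with Ptprc and Cd79a. A gene that this rule names is not reported here; it stayed in the tests and counts. Replicate numbers did not pair the libraries. Alternatives were other filters, pseudocounts, scalings, variance priors, library weights, a replicate block, leaving out each library, pooled reads or medians for shares, and limma-voom on recovered reads, the last added after the data were seen. Python 3.11.15, pandas 2.3.3, numpy 2.4.6, scipy 1.17.1 and matplotlib 3.10.9 were used.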

Additional observations from a re-analysis of the deposited data

Results flagged for a closer look

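For 9 of the 31 T cell genes, 1 of the 4 control-LNP libraries lay far from the others on the log2(CPM + 1) scale, and in all 9 it was control-LNP 2, on the low side. The measure is the gap from that library to its nearest neighbour divided by the whole range of the 4 libraries, compared with the 95% critical value of Dixon's test. Chance passes it in about 1 of 20 independent groups, but the 31 genes come from the same 4 libraries. The share of all genes that pass is not given here. Of genes with a mean of at least 4 CPM in control-LNP 1, 3 and 4, 47.4% had 5 reads or fewer in control-LNP 2. The count of 9 is therefore not read as particular to T cell genes. The gap was 0.984 of the range for Cd28, 0.964 for Cd4, 0.922 for Lat, 0.904 for Cd2, 0.884 for Cd6, 0.879 for Gata3, 0.864 for Cd8a, 0.855 for Tcf7 and 0.845 for Ctla4. Each of these genes is given in the report with and without that library.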

How the results depend on the processing

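The count of T cell genes called higher was 0 under every alternative run. The count called lower, 15, was 23 with median centring, 24 with quantile normalization, 28 with library weights, 8 with the replicate block, 27 with control-LNP 2 left out together with median centring, and 11 to 27 when 1 library was left out. The count over all genes, 1957, was 3015 with quantile normalization, 4343 with library weights, 1060 with the replicate block, 4157 without control-LNP 2 and with median centring, and 1372 to 3964 when 1 library was left out, the highest without control-LNP 2. Median centring moved the median log2 fold change of all genes from 0.15 to -0.80 and quantile normalization to -0.19. Trbc1, Bcl11b and Satb1 lost their calls without a filter and without a trend in the variance prior. Voom lost Trbc1 and Bcl11b. Of the 31 genes only 3 turned direction. Cd4 was 0.092 with voom and -1.52 to 0.66 when 1 library was left out. Tcf7 was -0.12 with a pseudocount of 4 CPM, -0.75 with median centring, -0.39 with quantile normalization, -1.31 with library weights, -1.21 without control-LNP 2 and with median centring, and -1.02 to 0.77 when 1 library was left out. Gata3 was 0.29 with the replicate block, 0.18 with voom and -1.25 to 0.34 when 1 library was left out. The difference in the Cd4 share ranged from 12.3 to 57.8 percentage points when 1 library was left out. The difference in the Trbc1 share was 6.42 percentage points from pooled reads and -34.1 to 1.82 when 1 library was left out. That in the share of Cd3e in Cd3e plus Cd79a ranged from -4.45 to 0.553. The cause of these turns was not tested. The numbers 1 to 3 occur in both groups, but deviations of libraries with the same number correlated at 0.0053, -0.0105 and -0.0173, and in no pair did a library correlate best with its own number. The block, which leaves fewer degrees of freedom and in which control-LNP 4 has no partner and adds nothing to the difference, ended the calls of Cd3g, Trac, Trbc1, Zap70, Bcl11b, Satb1 and Ubash3a. Planned fits with TMM scaling and with edgeR were not run; voom on the recovered reads with total library sizes was run in their place.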
